A study of Homo sapiens with 20 samples.

Results

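The last phase of the usual HepaRG protocol was followed on arrays, from cells at day 15 of culture (D15) to cells at day 30 that had received DMSO from day 15 on (D30 + DMSO). HepaRG is a human hepatoma line whose progenitors become hepatocyte-like and biliary-like cells in the same dish, so RNA of a culture is a mixture of both. The comparison rests on 8 of the 20 arrays of the series, 4 of D15 and 4 of D30 + DMSO, chosen by these labels alone. All cultures grew in William's E medium with serum, antibiotics, insulin and hydrocortisone. D15 cells had no DMSO, and D30 + DMSO cells had 2% DMSO for the last 15 days. Culture time and DMSO therefore change together, and the 4 arrays of cells kept to day 30 without DMSO (D30 - DMSO) are set beside them. The conditions were made 4 times, in independent experiments on this single line.

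Hepatocytes make most plasma proteins, clear drugs and steroids with cytochromes P450 and conjugating enzymes, dispose of ammonia through the urea cycle and keep blood glucose up by gluconeogenesis. Nuclear receptors such as CAR and PXR switch on much of the drug-metabolising program. Progenitor and bile duct cells instead carry keratins, matrix proteins and adhesion molecules, and inflammatory cytokines act through NF-kB to raise chemokines and acute-phase proteins. DMSO is a small polar solvent long used to bring hepatoma cells in culture closer to mature hepatocytes.

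From D15 to D30 + DMSO, 13 of 27 cytochromes P450, 15 of 45 amino acid and urea cycle genes, 11 of 44 conjugating and other drug-metabolising enzymes (3 lower) and 8 of 25 lipoprotein genes were called higher, beside 2.22% of all genes. Called lower, beside 4.22% of all genes, were 15 of 42 acute-phase, cytokine and chemokine genes (1 higher), 14 of 43 matrix proteoglycan, glycoprotein and protease genes and 8 of 25 keratin and stratified-epithelium genes. Albumin, keratins 8 and 19, and most cell cycle genes did not pass the test. Of 22062 genes tested, 1420 (6.44%) were called changed, at a Benjamini-Hochberg adjusted p below 0.005 in limma and a difference of more than 2-fold. They divide into 490 higher (2.22%) and 930 lower (4.22%) at D30 + DMSO, with a median fold of 2.73 for the higher and 3.15 for the lower genes. In the same comparison 6602 of the 22062 genes had an unadjusted p under 0.05 in limma. With normexp background correction, which shrinks dim probes, the calls were 373 higher and 402 lower, so the share of lower calls moved from 65.5% to 51.9%.

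Values below are log2 signals on a scale where 0 is the 75th percentile of the array, and differences are D30 + DMSO minus D15 on the log2 scale with their standard error (SE) from limma. Over all genes the median difference was 0.04. Groups of 4 and 4 arrays that do not overlap were common, at 23.4% of the genes with all values. Of the called genes, 1053 were well above background on all 8 arrays. Another 14 of the higher genes were not well above background on any D15 array, and 128 of the lower genes on no D30 + DMSO array. For the 14, and for 116 of the 128, the fold is a rough lower bound, the bright mean against the weakest signal called well above background, and is written as "at least". For the other 12 none is given: 5 of them were at background level on all 8 arrays, and for the rest that bound came to under 1-fold. The bound depends on the background correction: with normexp the log2 differences of IL7R, CLCA2 and TMEM156 were -0.63, -0.76 and -0.48. Genes such as IL7R have arrays set to the floor of the scale, which cuts their spread. Their adjusted p-values may therefore be too small. For 5 called genes, CNN1, TEK, PSG3, SSX1 and KREMEN2, all 8 arrays were at background level, so no size is given. List members beyond each list's landmarks and 3 largest differences are examples chosen after their values were seen.

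Arrays of each condition agreed across genes with Pearson's r of 0.961 to 0.991 at D15 and 0.968 to 0.992 at D30 + DMSO, against 0.942 to 0.969 between them. The arrays lay on several slides, and slides 3 and 4 held both conditions. The 1420 called genes had the same sign within slide 3 as within slide 4, and 1182 differed more than 2-fold in each. These genes were called on largely the same arrays, so agreement between the slides was mostly fixed in advance. With slide as a block, 612 genes were called higher and 1064 lower. Defining hepatocyte markers, 12 of 12, were well above background on all 8 arrays, and their summed linear signal, in units of the 75th percentile, was 1530 to 2210 at D15 and 2440 to 3700 at D30 + DMSO. The cholangiocyte markers EPCAM and CFTR were below background throughout, while the sum of the 8 markers was 138 to 184 and 103 to 150. Sums for 10 stellate cell and fibroblast markers were 9.65 to 14 at D15 and 3.85 to 4.62 at D30 + DMSO, with PDGFRA, PDGFRB and THY1 below background on every array. Endothelial sums lay between 0.814 and 1.58 and leukocyte sums between 5.79 and 7.18, with PECAM1, LYVE1, TEK and MS4A1 below background.

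Cytochromes P450 of families 1 to 4, the enzymes that oxidise most drugs, were the list with the largest median difference, 1.83 over 27 genes. Of these 13 were called higher and none lower, although 1 was lower at an unadjusted p under 0.05. The methods' t-test also called 13 higher and none lower, and with slide or replicate as a block, or without D15 replicate 4, 1 gene was called lower. Among the 12 largest rises of all called genes with a symbol, 6 belonged to this family.

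CYP3A4 (NM_017460), which oxidises more drugs than any other liver enzyme, read between 0.51 and 1.65 on the 4 D15 arrays. At D30 + DMSO the 4 arrays read 6.70, 6.57, 6.88 and 6.70, far above every D15 array and close to one another. The difference was 5.65 ± 0.26 (SE, n = 4 per condition, limma adjusted p = 1.0e-10), or 50.3-fold. D30 - DMSO arrays lay between, at 2.83, 2.95, 2.89 and 1.89, which is 1.58 above D15 with an adjusted p of 0.021, short of the threshold. Between the day 30 conditions CYP3A4 differed by 4.07 (adjusted p = 9.9e-09). Its promoter is shown because it carries a TATA box, a core promoter element. The window is chr7:99784185-99784434 (GRCh38.p14, minus strand, RefSeq), the 250 bases before the start, and capitals mark the letters TATAAA, 29 bases before the start.
CYP3A4: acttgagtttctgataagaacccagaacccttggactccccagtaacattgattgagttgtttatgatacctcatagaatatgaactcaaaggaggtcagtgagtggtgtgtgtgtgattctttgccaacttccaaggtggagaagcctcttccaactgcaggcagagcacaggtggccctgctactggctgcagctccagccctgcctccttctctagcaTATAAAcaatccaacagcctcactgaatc
These letters, on either strand of 300 bases around the start, were in 11 of the 20 promoters of this list that RefSeq's table held (55%), against 6.9% of the 11229 tested genes with a promoter there. Among the 11 were 8 genes called higher, CYP1A2, CYP2A7, CYP2A13, CYP2B6, CYP2C19, CYP2E1, CYP3A4 and CYP3A7. In the whole list 13 of 27 genes were called higher. Promoters of all called higher genes held them in 12.8%, and 62 of the 541 promoters of called lower genes did.

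CYP2E1 (NM_000773), which oxidises ethanol and small solvents, had the largest fitted rise among called genes with a symbol. Its signals were -4.31, -4.77, -5.39 and -4.03 at D15, where only 2 of the 4 arrays were well above background. At D30 + DMSO they were 1.54, 1.65, 1.75 and 1.77, a difference of 6.30 ± 0.45 (SE, adjusted p = 2.7e-08). Cells without DMSO at day 30 gave -2.43, -2.79, -2.67 and -4.42, above D15 on 3 of 4 arrays only. CYP2B6 (NM_000767), a classical CAR target, went from 1.46, 0.83, 0.85 and 1.57 to 5.91, 5.71, 6.35 and 5.55, which is 4.70 ± 0.27 (adjusted p = 2.5e-09). That value belongs to the brighter of the gene's 2 probes. The other CYP2B6 probe differed by 0.64 (adjusted p = 0.132), so the probes disagree. Little of the CYP2B6 rise was present without DMSO, where the difference from D15 was 0.38.

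CYP2C19, which oxidises proton pump inhibitors, rose by 3.96 ± 0.44 (adjusted p = 3.7e-06). Its neighbour CYP2C8 differed by 2.42 with an adjusted p of 0.019, so it was not called, though its 4 and 4 arrays did not overlap. CYP2A7 and CYP2A13 rose by 5.46 and 4.27, but these genes are near-identical to CYP2A6 and a probe may read the sum of them. The same holds for CYP3A7 (3.62) beside CYP3A4 and for CYP4F2 (2.87) beside CYP4F3 (2.80). CYP1A2, which oxidises caffeine, rose by 2.34 ± 0.30 (adjusted p = 1.9e-05), whereas CYP1A1 differed by 0.60 (adjusted p = 0.30). CYP2D6, at 0.44 with an adjusted p of 0.56, did not pass either.

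**Figure D1:**
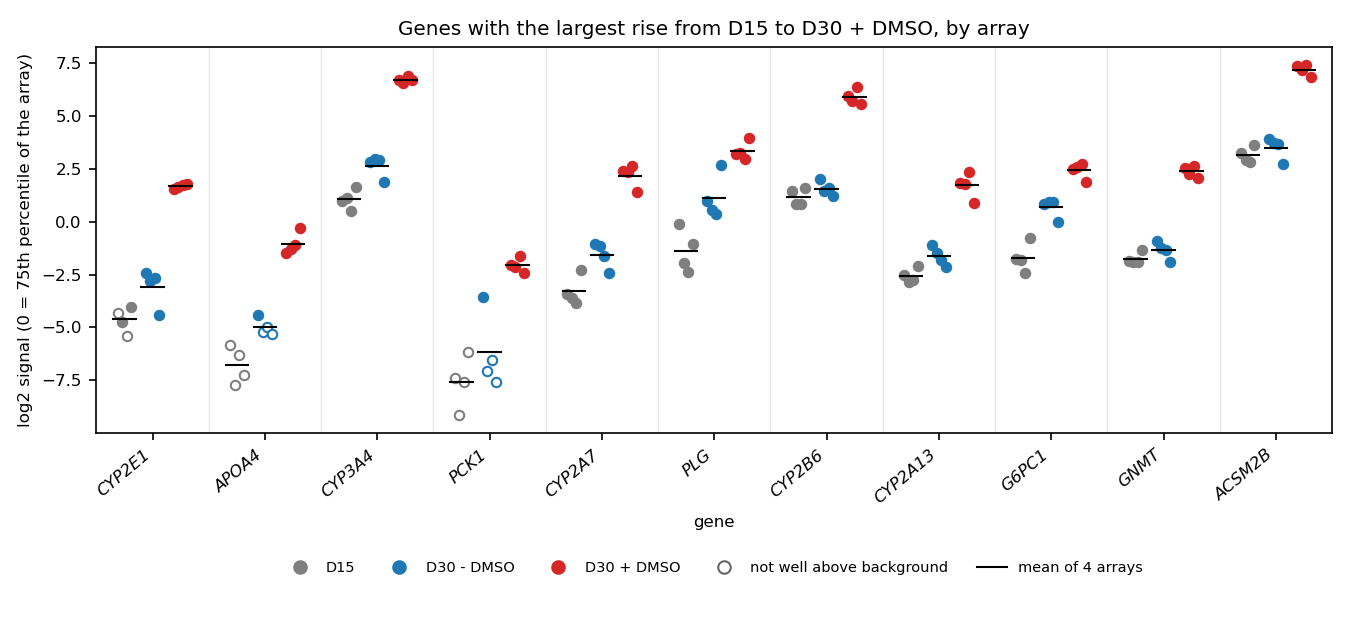
Log2 signal of each array (vertical axis, 0 is the 75th percentile of the array) for 11 of the 12 genes with the largest fitted rise from D15 to D30 + DMSO, at D15 (grey), D30 - DMSO (blue) and D30 + DMSO (red). Bars are means of 4 arrays and open symbols are arrays not well above background; every red symbol lies above every grey one of the same gene.

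Conjugating and other drug-metabolising enzymes moved less uniformly, with 11 of 44 called higher, 3 lower and a median difference of 0.63. The methods' t-test left 5 higher and 0 lower. The bile acid and steroid sulfotransferase SULT2A1 rose from between 2.47 and 3.27 to between 4.75 and 5.26, by 2.27 ± 0.36 (adjusted p = 1.6e-04). EPHX1, microsomal epoxide hydrolase, rose by 2.02, AOX1, aldehyde oxidase, by 1.98, and UGT2B15, a glucuronosyltransferase, by 2.09. GLYAT, which joins glycine to benzoate, differed by 2.16 (adjusted p = 0.0018), a call lost without D15 replicate 2 or 3 or D30 + DMSO replicate 1, 2 or 3, and a second GLYAT probe was called higher at 1.24.

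The estrogen sulfotransferase SULT1E1 went the other way. It read -2.59, -2.67, -3.01 and -2.20 at D15 and -6.32, -6.90, -8.19 and -9.14 at D30 + DMSO, with none of the last 4 well above background, and so fell at least 6.58-fold (adjusted p = 9.4e-06). Without DMSO it was at -1.71, -1.47, -1.68 and -2.95, 0.66 above D15. UGT2B7, the main morphine glucuronosyltransferase, differed by -0.48 (adjusted p = 0.20) with DMSO and by 0.51 without it, and the gap between the day 30 conditions, lower with DMSO, had an adjusted p of 0.0065.

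Among liver transcription factors and nuclear receptors 5 of 34 were called higher and none lower (median 0.39; 4 were lower at an unadjusted p under 0.05, and the methods' t-test called 4 higher and 0 lower). NR1I3, which encodes the xenobiotic receptor CAR, read -1.70, -2.48, -2.78 and -1.41 at D15 and 1.52, 1.29, 1.71 and 0.72 at D30 + DMSO. All 4 later arrays were higher, by 3.40 ± 0.40 (adjusted p = 7.5e-06), and a second NR1I3 probe differed by 3.31. NR1I2, which encodes PXR, rose by 1.61 ± 0.26 (adjusted p = 2.0e-04), from between -2.07 and -1.46 to between -0.46 and 0.09. NR0B2 (SHP, the bile acid feedback repressor) rose by 2.84 and the liver factor CEBPA by 1.21. HNF4A, the central hepatocyte factor, differed by 0.46 ± 0.23 (adjusted p = 0.20) on arrays that overlapped between conditions.

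Plasma proteins of hepatocytes were called higher for 10 of 48 genes and lower for 2, with a median of 0.46. Leaving out D15 replicate 3 or D30 + DMSO replicate 1 reduced the 10 to 6, and the methods' t-test called 4. PLG, the precursor of the clot-dissolving enzyme plasmin, was at -0.13, -1.98, -2.40 and -1.05 at D15. It reached 3.18, 3.26, 2.95 and 3.95 at D30 + DMSO, 4.72 ± 0.61 higher (adjusted p = 1.7e-05). D30 - DMSO arrays also read higher for PLG, at 0.98, 0.53, 0.34 and 2.68, and the 2.20 between the day 30 conditions had an adjusted p of 0.015. SERPIND1 (heparin cofactor II), F12 (coagulation factor XII) and SERPINC1 (antithrombin) rose by 2.82, 2.32 and 1.94.

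ALB, the gene of albumin, stayed at a very high signal, 9.61, 9.11, 9.78 and 9.71 at D15 and 9.57, 9.28, 10.10 and 9.77 later. That difference of 0.13 ± 0.24 (adjusted p = 0.81) was inside the spread of the arrays. Fetal AFP differed by -0.34 (adjusted p = 0.27). AHSG, a calcium-binding protein that drops in inflammation, fell by 1.38 in log2 units (adjusted p = 2.2e-04), from between 1.27 and 1.93 to between -0.43 and 0.54, while D30 - DMSO arrays stood at 2.57 to 2.97. ITIH3, an inter-alpha-trypsin inhibitor chain, differed by -2.19 with DMSO (adjusted p = 0.0018) and by 0.71 without it. Only the 8 arrays compared, or the arrays off slide 4, left no gene of the list called lower, and 1 of these calls was lost without each of D15 replicates 1 and 4 and D30 + DMSO replicates 3 and 4. The letters GTTAAT, part of the HNF1 site, were in 27.5% of the 40 plasma protein promoters in RefSeq's table, against 4.09% of all tested genes there. Of the 11 genes of the list with them, 2 were called higher and 0 lower, beside 10 higher and 2 lower of 48 in the whole list. Promoters of called higher genes held them in 6.6% and those of called lower genes in 5.73%.

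Lipoprotein genes were called higher for 8 of 25, with a median of 0.69 and 1 lower at an unadjusted p under 0.05; neither limma nor the methods' t-test called any lower. The 8 became 4 or 5 without any 1 of D15 replicates 1 to 3 or D30 + DMSO replicates 1 to 3, and 5 without slide 4. APOA4, of chylomicrons and high-density lipoprotein, was below background on all D15 arrays and read -1.49, -1.28, -1.11 and -0.31 at D30 + DMSO, so it rose at least 18.8-fold (adjusted p = 8.7e-09). The lowest APOA4 log2 difference under any alternative setting, 2.31, lies below this bound but was still called higher. APOC3, an inhibitor of triglyceride clearance, rose by 3.32 ± 0.37 and APOA5, its counterpart, by 3.50 ± 0.41 (adjusted p = 4.1e-06 and 6.8e-06). APOA1, the main protein of high-density lipoprotein, differed by 1.73 (adjusted p = 0.0021), and that call was lost without each of D15 replicates 1 to 3 and D30 + DMSO replicates 1, 3 and 4. APOB, the protein of low-density lipoprotein, differed by 0.27 (adjusted p = 0.63).

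ANGPTL8, a hormone-like inhibitor of lipoprotein lipase, was the only gene called between D15 and D30 - DMSO. It read -3.23, -3.41, -3.46 and -2.36 at D15, -0.38, -0.23, -0.42 and -0.46 without DMSO and -2.33, -1.70, -2.27 and -3.09 with it. Its rise without DMSO was 2.74 (adjusted p = 2.8e-04), and with DMSO the difference from D15 was 0.77 (adjusted p = 0.063).

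In the glucose list 6 of 33 genes were called higher and 1 lower around a median of 0.003. PCK1, which commits carbon to gluconeogenesis, was below background on all D15 arrays. With readings of -2.03, -2.16, -1.62 and -2.43 at D30 + DMSO it rose at least 9.34-fold (adjusted p = 1.5e-05). The lowest PCK1 log2 difference under any alternative setting, 1.46, lies below this bound but was still called higher. G6PC1, the phosphatase that releases free glucose, rose by 4.12 ± 0.37 (adjusted p = 2.7e-07), from between -2.42 and -0.76 to between 1.89 and 2.70. Without DMSO at day 30 it read 0.85, 0.90, 0.93 and -0.03, which is 2.37 above D15 with an adjusted p of 0.017. The mitochondrial PCK2 rose by 1.88 and the liver pyruvate kinase PKLR by 1.78. HK2, the hexokinase of proliferating cells, fell by 1.85 on the log2 scale. PFKFB1, a bifunctional regulator of glycolysis, differed by 2.37 (adjusted p = 0.0037) and lost its call without any of the arrays except D15 replicate 4.

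Amino acid and urea cycle genes were called higher for 15 of 45 and lower for none (median 0.58; 2 were lower at an unadjusted p under 0.05, and the methods' t-test called 10 higher and 0 lower). GNMT, a methyltransferase that disposes of excess methionine methyl groups, read -1.86, -1.91, -1.90 and -1.33 at D15 and 2.54, 2.25, 2.64 and 2.05 at D30 + DMSO. All later arrays were higher, by 4.12 ± 0.29 (adjusted p = 2.1e-08), and without DMSO the difference was 0.41. GLS2, liver glutaminase, rose by 3.14 ± 0.31 and AGXT, which detoxifies glyoxylate, by 2.94. Of the urea cycle, OTC rose by 2.89 and ARG1 by 2.79, whereas CPS1, its first enzyme, differed by -0.90 (adjusted p = 0.25). CPS1 readings at D30 + DMSO were spread widely, at 3.73, 3.65, 2.65 and 0.79.

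Bile acid synthesis and hepatic transport was called higher for 8 of 36 genes and lower for none (median 0.74; 2 lower at an unadjusted p under 0.05, and 4 higher and 0 lower by the methods' t-test). ABCG8, of the sterol efflux pump, rose by 3.17, its partner ABCG5 by 1.92, and SLC47A1, which exports cations into bile, by 2.84. SLCO1B1, the statin uptake transporter, rose by 2.20 and CYP8B1, which makes cholic acid, by 2.73. CYP7A1, the rate-limiting enzyme of bile acid synthesis, differed by 2.34 ± 0.72 (adjusted p = 0.027), with D30 + DMSO replicate 4 at -1.39 inside the D15 range and the others at 1.36, 1.07 and 0.59. SLC10A1, the bile acid uptake carrier, differed by 0.76 (adjusted p = 0.068).

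Sterol and fatty acid synthesis was called higher for 9 of 43 genes and lower for none (median 0.60; 2 lower at an unadjusted p under 0.05; the methods' t-test called 4 higher and 0 lower). The 9 were 5 without D30 + DMSO replicate 1. DGAT2, the last enzyme of triglyceride synthesis, rose by 2.42 ± 0.21 (adjusted p = 1.5e-07). INSIG1, a sterol-sensing regulator, differed by 1.48 and lost its call without any of D15 replicates 2 to 4 or D30 + DMSO replicates 1 and 2. FASN, fatty acid synthase, differed by 0.60 (adjusted p = 0.028). THRSP, a lipogenic protein well above background on 1 D15 array, differed by 2.39 (adjusted p = 0.0058) and passed with slide as a block.

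Fatty acid oxidation and ketogenesis was called higher for 8 of 43 genes and lower for none (median 0.39; 2 lower at an unadjusted p under 0.05; 3 higher and 0 lower by the methods' t-test). Without D30 + DMSO replicate 1 or 2 there was 1 called lower. FABP1, the liver fatty acid carrier, differed by 2.15 (adjusted p = 0.0018) and lost its call without any of D15 replicates 2 and 3 or D30 + DMSO replicates 1 to 3. SLC27A2, a fatty acid transporter, rose by 1.88 and BDH1, which makes the ketone body hydroxybutyrate, by 1.67. The gate of mitochondrial oxidation, CPT1A, gave 0.18, -0.03, 0.13 and 0.01 and then 0.06, 0.01, 0.13 and 0.07, with an adjusted p of 0.99.

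**Figure D2:**
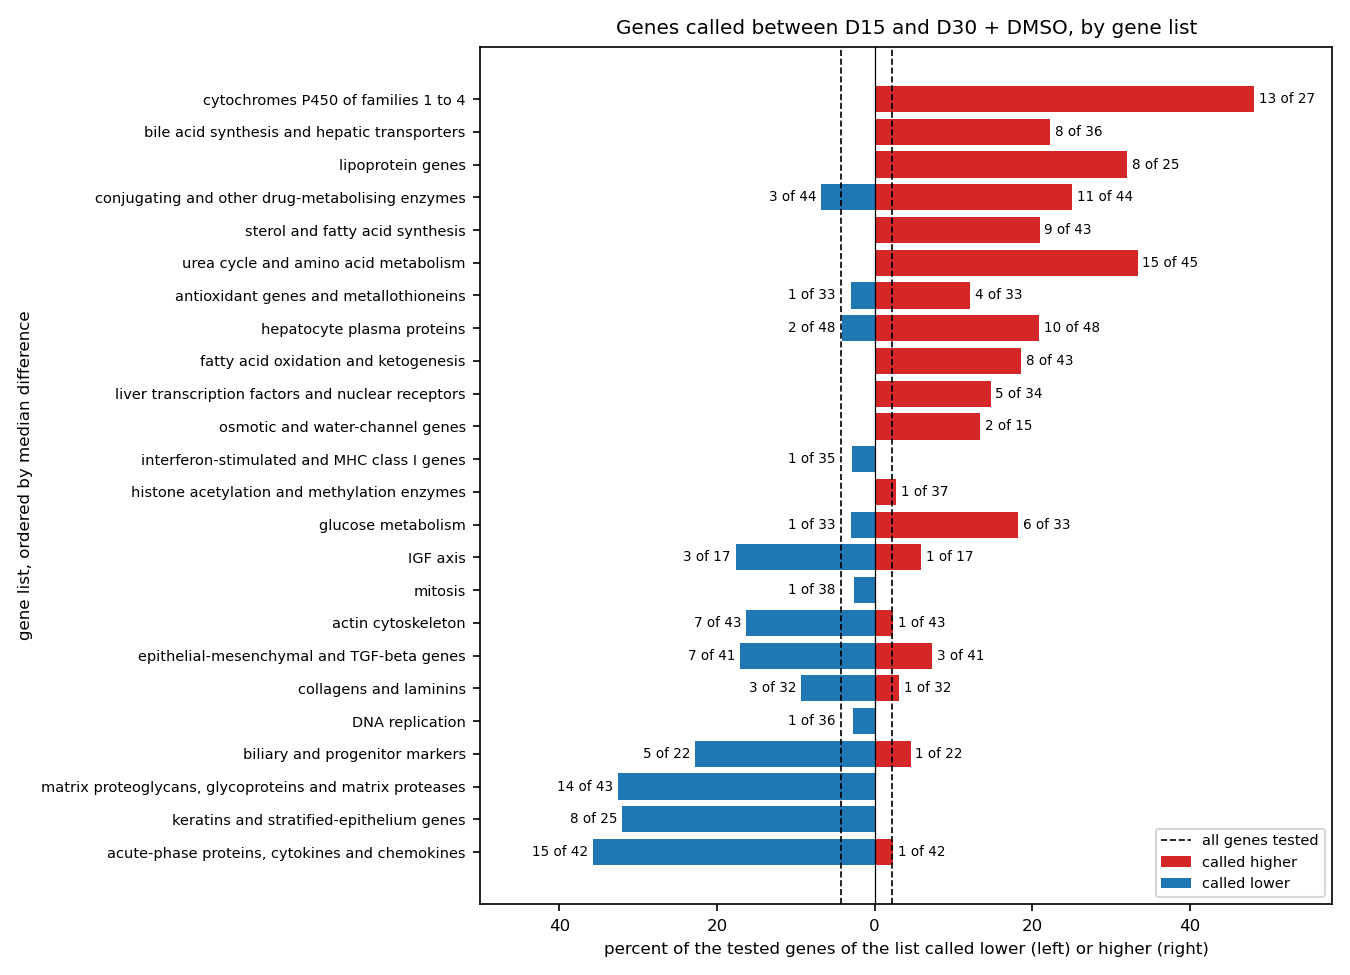
Percent of the tested genes of each of 24 gene lists called lower (blue, to the left) or higher (red, to the right) at D30 + DMSO against D15, ordered by median difference, with counts beside the bars. Dashed lines are the shares of all genes tested, 4.22% lower and 2.22% higher; cytochromes P450 extend farthest to the right with 13 of 27 and acute-phase genes, cytokines and chemokines farthest to the left with 15 of 42.

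Falls outnumbered rises. In bulk RNA, fewer cells of a type and less RNA per cell cannot be told apart. Acute-phase proteins, cytokines and chemokines had the lowest median of the lists, -0.91, with 15 of 42 called lower and 1 higher. Without the arrays of slide 4, which form the second scan session, 8 were called lower, and by the methods' t-test 5 were. IL7R, a lymphokine receptor chain, read -3.11, -3.44, -3.61 and -4.10 at D15 and lay below background on all D30 + DMSO arrays, so it fell at least 3.41-fold (adjusted p = 4.9e-11). CXCL14 fell at least 3.26-fold. CRP, the main human acute-phase protein, was at -1.97, -1.57, -1.71 and -1.53 at D15 and -3.05, -3.36, -4.85 and -6.52 at D30 + DMSO, 2 of the latter well above background. Its difference of -2.75 ± 0.52 (adjusted p = 7.2e-04) stood against 0.97 without DMSO, and the second CRP probe differed by -1.96. The CRP call was lost with only the 8 arrays compared and with the methods' t-test.

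CCL2, a monocyte attractant, read 1.29, 1.07, 1.16 and 1.54 at D15 and 0.01, -0.77, -0.79 and -1.19 at D30 + DMSO, a fall of 1.95 ± 0.26 on the log2 scale (adjusted p = 2.8e-05) that was not called without slide 4. The adhesion molecule ICAM1, the NF-kB subunit RELB and the NF-kB feedback gene TNFAIP3 fell by 1.84, 1.66 and 1.48. LBP, which binds bacterial lipopolysaccharide, fell by 1.79. IL6R, an interleukin receptor and the 1 gene of the list called higher, rose by 1.77 ± 0.30 (adjusted p = 2.5e-04).

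CXCL1 (NM_001511), a neutrophil attractant chosen after its values were seen, is given with its promoter because it carries an NF-kB motif. It read 3.27, 2.31, 2.06 and 2.34 at D15, 2.96, 2.96, 3.02 and 1.52 at D30 - DMSO and 0.64, 0.39, 0.06 and -1.30 at D30 + DMSO. No array with DMSO reached any array without it, and the difference from D15 was -2.55 ± 0.43 (adjusted p = 2.5e-04). The window is chr4:73869143-73869392 (GRCh38.p14, plus strand, RefSeq), the 250 bases before the start, with the motif (GGGA, any base, then TTTCC) in capitals, 79 bases before the start.
CXCL1: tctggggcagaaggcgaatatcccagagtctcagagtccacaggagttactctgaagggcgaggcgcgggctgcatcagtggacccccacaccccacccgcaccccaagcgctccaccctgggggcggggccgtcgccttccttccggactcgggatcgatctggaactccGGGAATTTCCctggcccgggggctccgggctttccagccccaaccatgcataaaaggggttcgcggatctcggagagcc
On either strand of the 300-base windows, this motif was in 8 of the 29 promoters of the list held by RefSeq's table (27.6%) and in 0.614% of all tested genes there. The 8 genes were CXCL1, CXCL2, CXCL3, CXCL5, IL32, IL6, NFKBIA and TNFAIP3, of which 3, CXCL1, CXCL3 and TNFAIP3, were called lower. That share is near the 15 of 42 genes called lower in the whole list. The motif was in 0.924% of the promoters of called lower genes and 0.347% of those of called higher genes.

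Keratins and stratified-epithelium genes were called lower for 8 of 25 and higher for none (median -0.77; 0 higher at an unadjusted p under 0.05 in limma and 0 by the methods' t-test). With probes well above background on all 8 arrays 2 were called lower, and by the methods' t-test 4. KRT6A, a keratin of hair follicles and healing skin, read 0.28, 0.18, 0.07 and 1.42 at D15. It was at -4.22, -4.38, -4.90 and -5.23 at D30 + DMSO, where 2 arrays were well above background, a difference of -5.17 ± 0.46 (adjusted p = 2.7e-07). Without DMSO at day 30 KRT6A stayed at 0.61 to 0.89. KRT6C, nearly identical in sequence so that probes may share its signal, fell at least 6.60-fold. LY6D, a membrane protein of squamous cells, fell by 4.33, the basal keratin KRT5 by 3.16, S100A2, a calcium-binding protein, by 2.52, and SFN (stratifin) by 1.72 on the log2 scale. KRT8, the keratin shared by all simple epithelia, differed by -0.22 (adjusted p = 0.62).

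**Figure D3:**
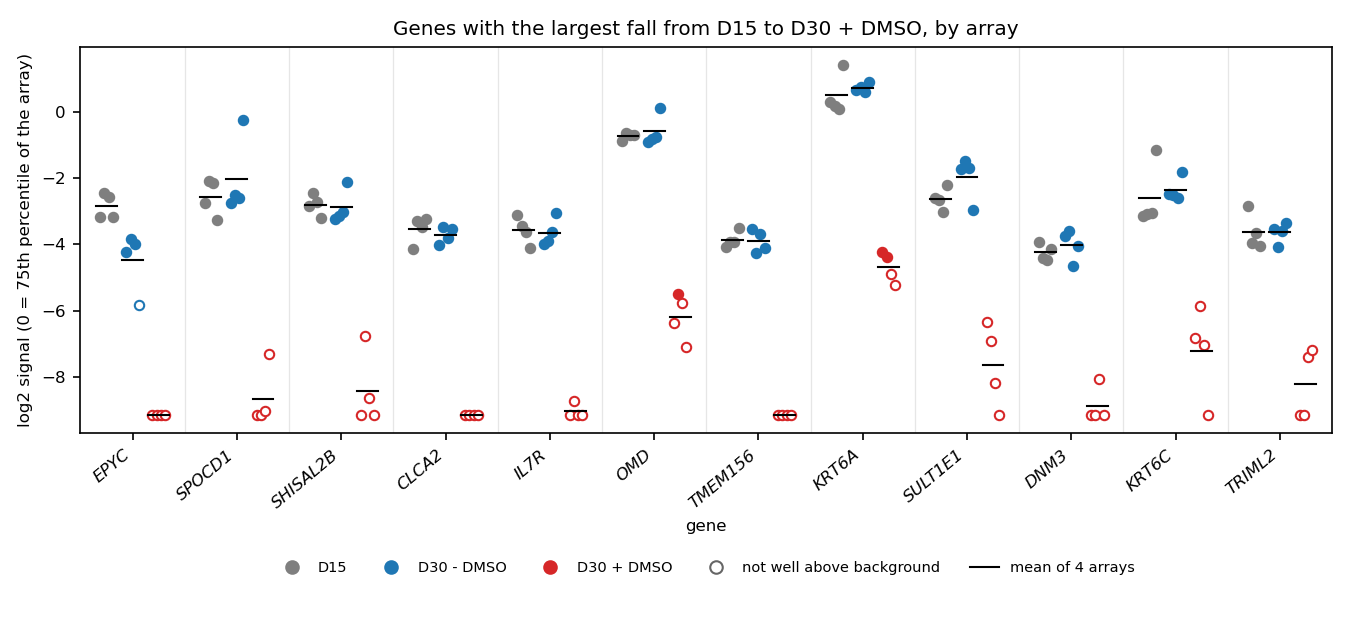
Log2 signal of each array (vertical axis, 0 is the 75th percentile of the array) for the 12 genes with the largest fitted fall from D15 to D30 + DMSO, coloured as in the plot of rises. Open symbols are arrays not well above background, among them nearly all red symbols; EPYC is the gene of the 12 whose blue D30 - DMSO symbols all lie below its grey D15 symbols.

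Biliary and progenitor markers were called lower for 5 of 22 and higher for 1, with a median of -0.48. AGR2, a mucus-cell disulfide isomerase, read -1.26, -0.57, -0.67 and -1.53 and later -4.87, -4.75, -5.64 and -6.04, which is -4.32 ± 0.32 (adjusted p = 3.5e-08), and on 2 later arrays it was not well above background. KRT23 was called lower by at least 3.07-fold, a call lost with normexp, the methods' t-test or without slide 4. SPP1 (osteopontin) fell by 1.81 ± 0.24, the Notch ligand JAG1 by 1.42 and integrin ITGB4 by 1.70. SOX9, the factor of bile duct progenitors, rose 2.82-fold (adjusted p = 1.8e-04), on all 4 later arrays, a call lost with normexp (0.88) or the methods' t-test. KRT19, the duct keratin, read 6.72, 6.81, 7.18 and 6.76 and then 6.52, 6.30, 6.81 and 6.16 (difference -0.42, adjusted p = 0.13).

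Matrix proteoglycans, glycoproteins and matrix proteases were called lower for 14 of 43 genes and higher for none (median -0.65; 2 higher at an unadjusted p under 0.05; 8 lower and 0 higher by the methods' t-test). With probes well above background on all 8 arrays 9 were called lower, and without D15 replicate 1 or 4 there was 1 called higher. The summed stellate cell and fibroblast markers were also lower at D30 + DMSO (9.65 to 14 against 3.85 to 4.62), but they include DCN, itself in the matrix list. DCN went from a mean of 2.85 to -0.13. Of the 5 of these markers tested, 4 differed downward and 1 upward, and DCN was the 1 called. The part of such cells in the result was not tested. OMD (osteomodulin, a keratan sulfate proteoglycan) read -0.89, -0.65, -0.69 and -0.71 at D15, -0.93, -0.82, -0.75 and 0.12 at D30 - DMSO and -6.35, -5.49, -5.77 and -7.08 at D30 + DMSO, where 1 array was well above background. Both sets without DMSO lay far above all 4 arrays with it, and the difference from D15 was -5.44 ± 0.36 (adjusted p = 1.5e-08). EPYC (epiphycan), of the same small leucine-rich family, fell at least 5.63-fold, DCN (decorin) by 2.97 ± 0.33 and LUM (lumican) by 3.00 ± 0.23 on the log2 scale. ECM1, a secreted glycoprotein, fell by 3.52 ± 0.42 (adjusted p = 8.1e-06), tenascin C (TNC) by 2.83 and periostin (POSTN) by 2.61. MMP2, gelatinase A, was called lower, but only 1 of the 8 arrays, at D15, was well above background, so no size is given, and the call was lost with normexp, a floor of 10 units or the methods' t-test.

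MMP7 (NM_002423), the matrilysin of epithelial cells, read 3.02, 3.50, 3.63 and 2.78 at D15, 2.60, 2.58, 2.69 and 2.59 at D30 - DMSO and 1.21, 1.30, 1.16 and 0.49 at D30 + DMSO. Each condition lay below the one before without overlap, but the step from D15 to D30 - DMSO was not called. Without D30 - DMSO replicate 4 that step was -0.61 (limma adjusted p = 0.943). The MMP7 fall from D15 to D30 + DMSO was 2.19 ± 0.26 on the log2 scale (adjusted p = 7.8e-06). Its promoter is given because it joins an AP-1 motif, TGANTCA, to a TATA box. In chr11:102530748-102530997 (GRCh38.p14, minus strand, RefSeq), the 250 bases before the start, capitals mark the AP-1 motif 67 bases and the TATA box 30 bases before the start, which do not overlap.
MMP7: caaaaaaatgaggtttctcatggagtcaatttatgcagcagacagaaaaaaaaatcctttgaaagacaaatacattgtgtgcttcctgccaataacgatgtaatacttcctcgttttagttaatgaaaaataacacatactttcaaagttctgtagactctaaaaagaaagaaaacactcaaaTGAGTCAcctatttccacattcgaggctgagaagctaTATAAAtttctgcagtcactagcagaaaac
The AP-1 letters, which read the same on both strands, were in 4 of 27 matrix promoters (14.8%), those of ECM1, MMP7, PLAUR and POSTN, all 4 called lower. In the whole matrix list 14 of 43 genes were called lower. In the keratin list the AP-1 letters were in 5 of 11 promoters (45.5%). Of these 5 genes 2, S100A2 and SFN, were called lower, beside 8 of 25 in the whole keratin list. The letters were in 9.43% of the promoters of called lower genes, 5.9% of called higher genes and 4.87% of all tested genes in RefSeq's table.

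Collagens and laminins were called lower for 3 of 32 genes and higher for 1 (median -0.32), with 2 higher without D15 replicate 1 or D30 + DMSO replicate 4. LAMA4, a laminin chain of vessel and muscle basement membranes, differed by -2.99 ± 0.19 (adjusted p = 1.1e-08) with its brightest probe, from between -2.05 and -1.69 to between -5.36 and -4.43. Of the other 3 LAMA4 probes 1 differed by -1.097 and was called lower, and the others differed by 0.01, so the probes disagree on whether this gene changed. LAMA1 fell by 1.81 and COL4A6 by 1.83 on the log2 scale, while LAMA3, an epithelial laminin chain, rose by 1.56 ± 0.21. COL4A1, the main collagen of basement membranes, differed by -0.30 (adjusted p = 0.43).

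Actin cytoskeleton genes were called lower for 7 of 43 and higher for 1 (median -0.30). FLNA, which crosslinks actin filaments, fell by 2.22 ± 0.42 (adjusted p = 7.2e-04), and LIMA1, which stabilises them, rose by 1.28. FSCN1 (fascin) and CNN1 (calponin) are among the 7, but FSCN1 was well above background on 1 of the 8 arrays and CNN1 on 0, so no size is given. Both calls were lost with normexp, a floor of 10 units or the methods' t-test, and CNN1 was also not called with only the 8 arrays compared, without slide 4, or without D15 replicate 1 or D30 + DMSO replicate 1, 3 or 4. ACTG2 differed by -2.26 (adjusted p = 0.0075) and passed with slide or with replicate as a block. ACTA2, smooth muscle actin, differed by -0.60 (adjusted p = 0.15).

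Of the epithelial-mesenchymal and TGF-beta genes 7 of 41 were called lower and 3 higher (median -0.32). TGFB2, a TGF-beta ligand, fell by 2.57 ± 0.29 (adjusted p = 4.5e-06), a call lost with normexp (-0.95) or the methods' t-test, and TGFB3 fell by 1.49 in log2 units. ITGB6, an integrin chain that frees TGF-beta, was called lower by at least 2.28-fold, but its arrays overlapped and the call was lost with normexp, a floor of 10 units, only the 8 arrays compared or the methods' t-test. SNAI1, a repressor of CDH1, rose by 1.81 ± 0.32 (adjusted p = 4.6e-04) and the inhibitor of differentiation ID1 by 1.41. With only the 8 arrays compared SNAI1 was not called, and the methods' t-test called 2 genes of the list lower and 0 higher. CDH1 (E-cadherin) differed by 0.34 and VIM (vimentin) by -0.32, with adjusted p-values of 0.53 and 0.61.

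In the IGF axis 3 of 17 genes were called lower and 1 higher (median -0.08). PAPPA, a protease that frees IGF from its binding proteins, fell by 2.43 ± 0.30 (adjusted p = 1.0e-05). IGFBP7 read 5.13, 5.30, 5.29 and 5.09 and then 3.19, 3.37, 3.38 and 3.16, a fall of 1.93 ± 0.12 on the log2 scale (adjusted p = 8.3e-09) with little spread. IGFBP6 fell by 2.35. IGFBP1, which insulin represses in liver, differed by 1.35 (adjusted p = 0.0040), and that call was lost with slide or replicate as a block and without each array except D30 + DMSO replicate 4, without which 2 genes of the list were called higher.

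Antioxidant genes and metallothioneins were called higher for 4 of 33 and lower for 1 (median 0.57). GPX2, a glutathione peroxidase, rose by 2.97 ± 0.26 (adjusted p = 2.3e-07) and CAT, catalase, by 1.48 ± 0.17 (adjusted p = 5.3e-06), the latter from 2.02, 2.24, 2.21 and 2.82 to 3.71, 3.72, 4.07 and 3.71. GCLC, which starts glutathione synthesis, and FTL, the ferritin light chain, rose by 1.12 and 1.32. SOD2, mitochondrial superoxide dismutase, fell by 1.63 ± 0.24 (adjusted p = 6.8e-05, not called without slide 4), from 6.22, 6.31, 6.79 and 6.27 to 5.10, 4.84, 4.95 and 4.21.

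Water channels AQP9, which also carries glycerol, and AQP11 rose by 2.79 and 2.27 and were the 2 called genes of 15 on the osmotic list (median 0.20; 1 lower at an unadjusted p under 0.05 and 0 called lower in limma or by the methods' t-test). AQP4 was 2.15-fold higher without passing (adjusted p = 0.053) and was called with replicate as a block. SLC5A3, the inositol carrier that hypertonic medium raises, differed by 0.53 (adjusted p = 0.19) and AQP3 by 0.25 (adjusted p = 0.58).

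For DNA replication 1 of 36 genes was called lower and 0 higher (median -0.40; 15 lower and 1 higher at an unadjusted p under 0.05; no call by the methods' t-test), a share of 2.78% beside 6.44% of all genes. For mitosis 1 of 38 was called lower and 0 higher (median -0.19; 3 lower and 0 higher at an unadjusted p under 0.05; no call by the methods' t-test). Over all 22062 genes tested, 6602 had an unadjusted p under 0.05 in limma. ASPM, a spindle pole protein, fell by 1.43 ± 0.25 in log2 units (adjusted p = 4.6e-04), a call lost without slide 4, and its second probe differed by -1.38 without a call. POLE2, of the replicative polymerase, differed by -1.28 (adjusted p = 0.0028), a call lost without any of D15 replicates 2 to 4 or D30 + DMSO replicates 1 and 4, while 2 genes of the list were called lower without D15 replicate 1 or D30 + DMSO replicate 2. MCM2 of the replicative helicase differed by -0.84 (adjusted p = 0.048), UHRF1 by -1.35 (adjusted p = 0.051) and E2F1 by -0.29 (adjusted p = 0.61). CDK1, the mitotic kinase, read -2.66, -1.76, -1.89 and -1.21 and then -2.98, -1.76, -1.83 and -2.03 (adjusted p = 0.59). MKI67, a proliferation antigen, differed by 0.13 ± 0.23 (adjusted p = 0.79).

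Interferon-stimulated and MHC class I genes were called for 1 of 35 and histone acetylation and methylation enzymes for 1 of 37, or 2.86% and 2.7% beside 6.44% of all genes. IFI44L differed by -1.92 (adjusted p = 0.0024) and lost its call without each array but D15 replicate 1. ISG15 differed by -0.31 without passing. KAT2B, a histone acetyltransferase, rose by 1.00 ± 0.14 (adjusted p = 3.5e-05), just past 2-fold, and was not called without D15 replicate 1 or 3 or D30 + DMSO replicate 3. HDAC1 differed by -0.17 and EZH2 by 0.06.

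**Figure D4:**
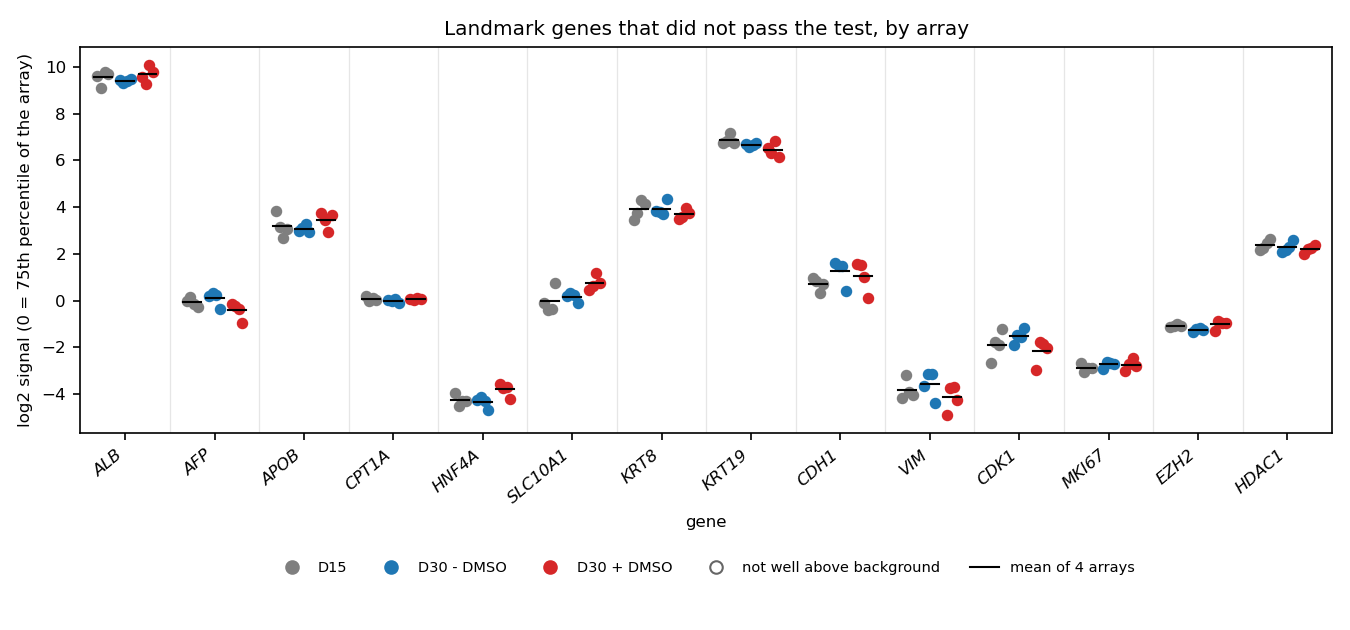
Log2 signal of each array (vertical axis, 0 is the 75th percentile of the array) for 14 landmark genes that did not pass the test, at D15 (grey), D30 - DMSO (blue) and D30 + DMSO (red). Bars are means of 4 arrays; grey and red symbols of each gene overlap.

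Set side by side, the step from D15 to D30 - DMSO gave 1 called gene of 22062 (0.00453%), 10 genes at an adjusted p below 0.05 and 655 at an unadjusted p under 0.05, and the difference between both day 30 conditions gave 1301 called genes (5.9%). These comparisons share arrays with each other. The 655 genes are fewer than chance alone gives at that threshold, and the step without DMSO was not refitted with replicate as a block. Its 1 call may therefore understate the change over time. D30 - DMSO replicate 4 often stood apart, lower than the other 3 arrays for CYP2E1, CYP3A4 and OTC and higher for SPOCD1 and ECM1. Without it the step to D30 - DMSO gave 1 call and 1015 genes at an unadjusted p under 0.05 (3 calls and 1276 genes without slide 4), and that to D30 + DMSO gave 508 higher and 967 lower. For cytochromes P450 the median difference from D15 was 0.57 without DMSO and 1.83 with it. For plasma proteins the medians were 0.36 and 0.46. For acute-phase genes, cytokines and chemokines the medians were 0.05 and -0.91, for keratins 0.03 and -0.77, and for matrix genes 0.05 and -0.65.

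**Figure D5:**
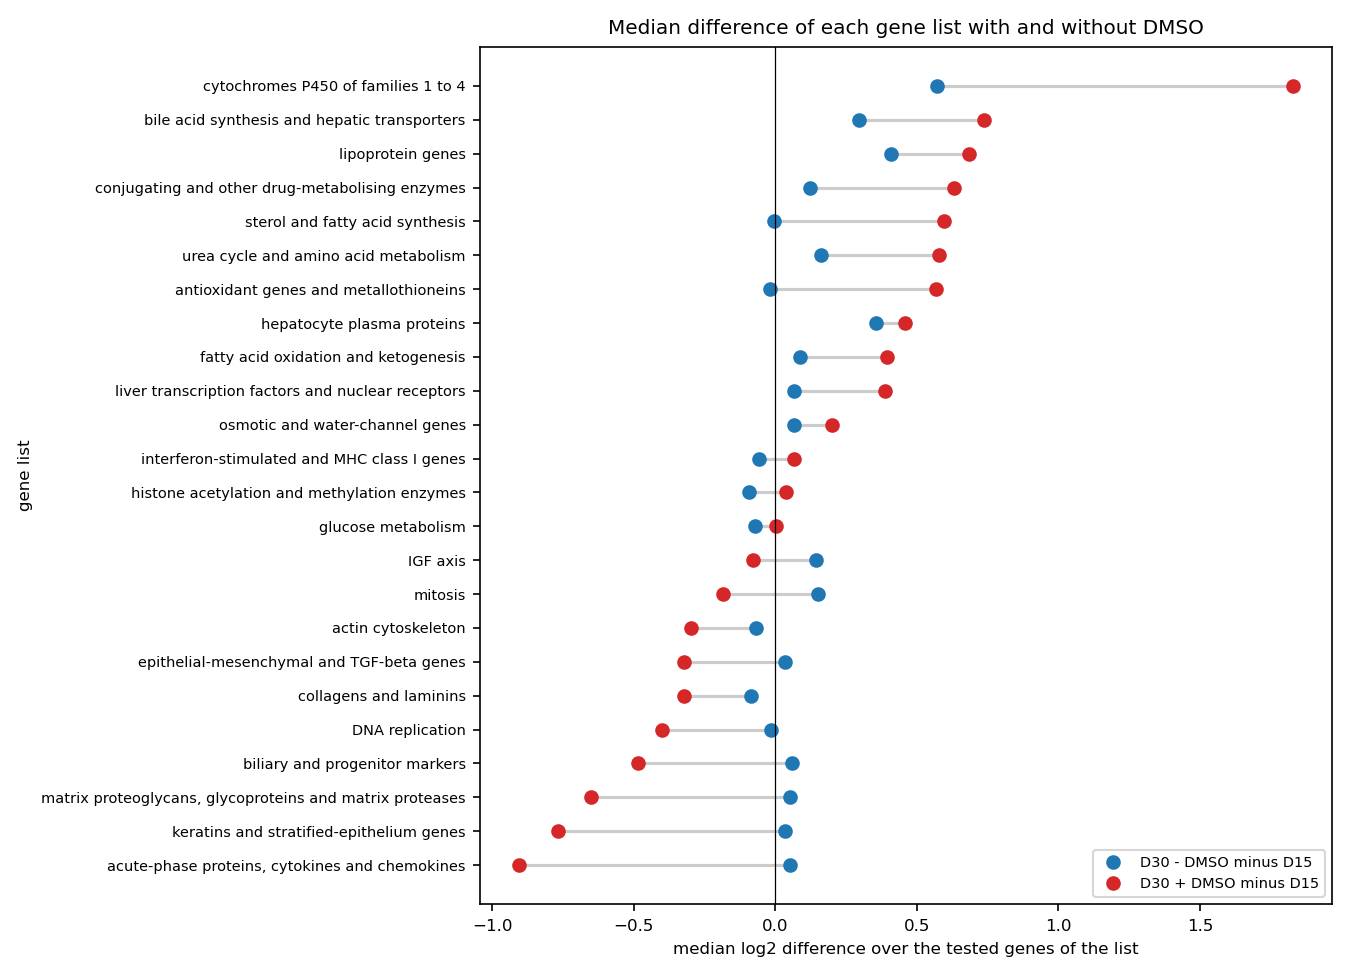
Median log2 difference from D15 (horizontal axis) over the tested genes of each of 24 gene lists, for D30 - DMSO (blue) and D30 + DMSO (red), joined by a grey line. The blue medians stay between -0.09 and 0.57, while the red medians run from -0.91 for acute-phase genes to 1.83 for cytochromes P450.

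Apart from genes already described, the largest rises among called genes with a symbol included ACSM2B, a mitochondrial acyl-CoA synthetase for medium-chain and aromatic acids, at 4.04 ± 0.53 (adjusted p = 2.7e-05). It read 3.23, 2.91, 2.82 and 3.63 at D15 and 7.33, 7.15, 7.42 and 6.83 at D30 + DMSO, and its call was lost without slide 4. The largest falls included SPOCD1, which takes part in silencing of transposons in germ cells, at least 6.81-fold. SHISAL2B fell at least 5.80-fold, the membrane protein CLCA2 at least 3.48-fold, TRIML2 at least 3.27-fold, TMEM156 at least 2.79-fold and DNM3, a dynamin, at least 2.15-fold. CLCA2 read -4.13, -3.29, -3.49 and -3.25 at D15 and -4.00, -3.47, -3.81 and -3.54 at D30 - DMSO, and was at the floor of the scale on all 4 D30 + DMSO arrays. For each of these 6 genes the 4 D30 + DMSO arrays were the lowest of the 12 and none was well above background.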

How the data were processed

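Cy3-labelled RNA of HepaRG cells had been hybridised to 1-colour Agilent SurePrint G3 arrays and extracted by the authors with Agilent Feature Extraction, version 10.7.3.1 per the labels and 10.7.1.1 per the file headers. The deposited intensity (processed signal) is background-subtracted and not scaled between arrays. The deposited matrix holds the authors' log2 values against a baseline per probe that the sources used here do not state; it served as an alternative. Spots flagged as outliers were left out and spots of a probe averaged. Each array was scaled to its 75th percentile (453.167 to 648.907 units on the 8 arrays compared), floored at 1 unit and put on a log2 scale. Of 58717 spots, 62.9% to 72.7% were well above background, and the number of arrays limits the precision. A probe was kept where the 4 arrays of some condition all read well above background, with the brightest kept probe of a gene used, and 24823 of 42405 probes were named through RefSeq.

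limma 3.58.1 in R 4.3.3 was fitted to all 20 arrays with 5 condition means and no block, and p-values were adjusted by Benjamini-Hochberg over all genes. Tested on simulated data for D30 + DMSO minus D15 (22062 genes, 200 changed), this recovered 49% of genes changed 2.5-fold and 79% of those changed 4-fold. Replicate numbers in the labels may pair the samples: deviations of same-numbered D15 and D30 + DMSO arrays correlated across genes at 0.542, 0.455, 0.394 and 0.476. The pair numbered 1, at 0.542, lay on different slides, while the others each shared a slide. Differently numbered arrays correlated at 0.204, 0.117 and 0.346 on a shared slide and at -0.588 to 0.193 on different slides. Named genes were the 12 largest called rises and falls with a symbol and, per list, its landmarks and the 3 largest differences. The lists and comparisons were chosen with earlier results of these data known. Promoters came from RefSeq (GRCh38.p14), held for 829 of the 1084 called genes with a symbol. Alternatives were other normalizations, background corrections, filters, floors, probe rules, blocks and thresholds, the methods' t-test, and leaving out arrays. Keeping outlier spots, leaving out slide 4 and leaving out D30 - DMSO replicate 4 were added after seeing the data. Some genes that fall under the naming rule are not reported here.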

Additional observations from a re-analysis of the deposited data

Results flagged for a closer look

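In 17 of the 219 groups of 4 arrays examined, 1 array lay apart from the other 3 by Dixon's criterion, where chance gives about 5%. Another 3 groups were wholly at the floor. D15 replicate 4 was the high array for 7 genes. It read -1.33 for GNMT (others -1.91 to -1.86), 1.42 for KRT6A, -1.14 for KRT6C and 0.91 for SERPIND1. It read -0.859 for GLS2, -0.796 for AQP11 and 1.41 for DGAT2. For these genes the D30 + DMSO arrays still did not overlap the D15 arrays.

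At D15, replicate 1 was high for CNN1 at -4.96, where no array was well above background, and low for IFI44L at -3.21, and replicate 3 was high for SOD2 at 6.79. At D30 + DMSO, replicate 4 was high for COL4A6 at 0.0565 and replicate 3 for CAT at 4.07. The other flags at D30 + DMSO were signals below background, where values at the floor have no order: SPOCD1 at -7.3 (replicate 4), IL7R at -8.7, MMP2 at -7.95 and CNN1 at -6.25 (replicate 2), and DNM3 at -8.04 (replicate 3).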

How the results depend on the processing

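The 1420 calls (490 higher, 930 lower) were within 1.5 times of that number under most settings, and none was called in the opposite direction under any. The settings that moved a count further were normexp background correction (402 lower, 775 in all), the methods' t-test (243 higher, 339 lower, 582 in all), and probes well above background on all 20 arrays (604 lower) or on the 8 compared (614 lower). Leaving out 1 array gave 399 to 508 higher, 803 to 967 lower and 1202 to 1475 in all. Without slide 4 there were 416 higher and 682 lower. Under both filters on background LAMA4 is read by another probe, at 0.009069, which reverses its sign. With replicate number as a block, since the numbers may pair the samples, 591 genes were called higher and 1073 lower, and 1415 of the 1420 calls remained. Among named genes the block lost IGFBP1 and gained ACTG2 and AQP4, and it changed no other call. Dim probes near background limit the folds of the lower genes most, and of the named genes normexp lost 20 calls and gained 1, THRSP. The calls lost with normexp include those of SPOCD1, SHISAL2B, CLCA2, IL7R, TMEM156, DNM3, KRT6C, TRIML2, CXCL14, MMP2, KRT23, ITGB6, TGFB2, CNN1, FSCN1, IFI44L, POLE2, KAT2B and SOX9. The methods' t-test lost more, 30 calls of named genes, and gained 0. Besides those given with their genes, they include SULT1E1, F12, ABCG8, SLC27A2, BDH1, CRP, CCL2, SPP1, MMP7, PAPPA, CAT, SOD2 and ASPM.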
